A study of Arabidopsis thaliana with 51 samples.

Results

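Wild-type (WT) seedlings of Arabidopsis thaliana treated with elf18 for 2 h were compared with untreated WT seedlings, on 3 arrays each, which makes 6 of the 51 arrays of the series, chosen by their genotype, peptide and time labels. RNA of whole seedlings, raised on agar and then in liquid medium, was hybridised to Affymetrix ATH1 arrays. The peptides elf18 and Pep2 were given at 1 µM, and the untreated samples were labelled 0 h. No mutation or transgene is labelled for WT. The other groups used here were ein2-1 untreated and at 2 h of elf18, pepr1-1 Pepr2-3 (pepr1 pepr2 below) untreated and at 2 h of Pep2, WT at 2 h of Pep2 and at 10 h of elf18, and, as other controls, untreated efr-1, each on 3 arrays. The level in efr-1 at 10 h of elf18, also on 3 arrays, is given for AT4G34950 only. Untreated seedlings sampled at 2 h and efr seedlings at 2 h of elf18 are not among the groups, so the peptide and the time and handling that went with it cannot be told apart within WT.

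The peptide elf18 is the acetylated start of bacterial elongation factor Tu. Plants of the cabbage family perceive it with EFR, a receptor kinase at the cell surface that acts with the co-receptor BAK1. Perception opens calcium channels, activates calcium-dependent and MAP kinases and reprograms transcription, a state called pattern-triggered immunity. Pep2 is a fragment of a plant protein perceived by PEPR1 and PEPR2, and EIN2 is a membrane protein needed for ethylene signalling.

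Levels are the deposited log2 GCRMA values, changes are differences between group means on that log2 scale, and the lowest level in the table is 2.08. The medians of the 51 arrays lay between 6.04 and 6.15. Arrays of untreated WT correlated at 0.987 to 0.993, and those of WT at 2 h of elf18 at 0.985 to 0.991. The shoot marker with a named probe set, RCA, which encodes Rubisco activase, stood at 15.07 ± 0.09 (SD, n = 3) before and 15.03 ± 0.08 after treatment. The root hair genes EXPA7 and EXPA18 stood at 6.92 ± 0.32 and 7.97 ± 0.34 before and at 6.90 ± 0.27 and 7.99 ± 0.14 after it. In a whole seedling, fewer cells of a type and less RNA per cell cannot be told apart.

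At 2 h of elf18, 1189 of 14568 probe sets tested were higher than in untreated seedlings (8.16%) and 923 were lower (6.34%). The call required a Benjamini-Hochberg adjusted p under 0.05 from limma and at least a 2-fold difference. The increases were the larger changes. Their median was 1.73 on the log2 scale, 490 of them reached 4-fold, 108 reached 16-fold and 16 reached 64-fold. The decreases had a median change of -1.35, with 156 at 4-fold or more, 6 at 16-fold and 1 at 64-fold. The probe sets that rose had a median untreated level of 6.30 and those that fell 7.96. Of the probe sets that rose, 78 started within 0.5 of the lowest value, and of those that fell, 16 ended there, so their changes depend on the authors' background correction.

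The changes called are between these 6 arrays, with the spread pooled over all 51, so the following values describe the calls and test nothing. The median difference from the untreated mean over the probe sets called higher was 1.68, 1.88 and 1.73 on the 3 treated arrays, and over those called lower -1.30, -1.50 and -1.37. The 3 treated and 3 untreated arrays did not overlap at 2088 of the 2112 probe sets called (98.9%), against 55.3% of all probe sets tested. Without the fold minimum, 7102 probe sets passed at an adjusted p under 0.05. The median change of all probe sets tested was -0.04. The probe sets called higher belong to 570 named genes and those called lower to 457, because the annotation pairs only part of the probe sets with exactly 1 gene.

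**Figure D1:**
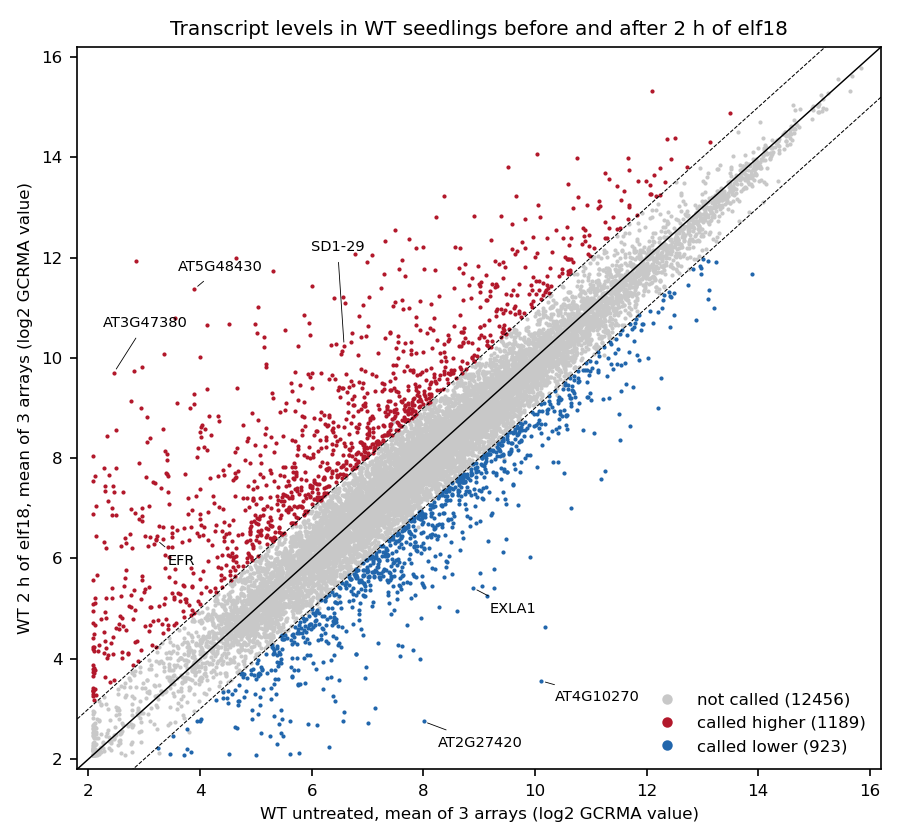
Mean log2 GCRMA value of each tested probe set in untreated WT (horizontal) and at 2 h of elf18 (vertical), 3 arrays each; the solid line marks equal levels, the dashed lines 2-fold, red the 1189 probe sets called higher and blue the 923 called lower. Red points reach far above the diagonal from low untreated levels, as AT3G47380 does, and the blue points furthest below it include AT4G10270 and AT2G27420.

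EFR, the receptor of the peptide itself, was low before treatment. Its level was 3.39, 3.42 and 2.84 on the untreated arrays and 6.39, 6.63 and 6.11 at 2 h of elf18. Every treated array lay above every untreated one, and the change was 3.16 (SE 0.224, adjusted p = 8.5e-15). The receptor list had 4 tested members, of which 3 were higher and 0 lower, against 8.16% and 6.34% of all probe sets tested. SD1-29, an S-domain receptor kinase for bacterial medium-chain 3-hydroxy fatty acids, went from 6.40, 6.82 and 6.52 to 10.37, 10.17 and 10.15. BIK1, a cytoplasmic kinase that acts directly below surface receptors, rose by 1.51 to 10.31 ± 0.22 (adjusted p = 9.1e-10). FER, the receptor of RALF peptides, stood at 10.55 ± 0.02 and 10.65 ± 0.15, with overlapping groups (adjusted p = 0.40). The list holds 17 genes, and the other 13 have no named probe set here.

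The 14 largest increases of named genes ran from 5.30 to 7.48. AT5G48430, which encodes an aspartyl protease family protein, went from 4.19, 3.19 and 4.32 to 11.37, 11.34 and 11.41 (change 7.48, SE 0.441). The treated arrays lay within 0.1 of each other and far above the untreated ones. AT3G47380, a pectin methylesterase inhibitor family gene, went from 2.59, 2.62 and 2.16 to 9.47, 9.93 and 9.73. AT2G42360, which encodes a RING finger protein, went from 2.41, 2.41 and 2.16 to 8.60, 8.48 and 8.25, with the smallest SE of the 14 (0.174). In both genes the untreated arrays were close to the lowest value of the table.

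Some of these genes varied more between the untreated arrays. AT2G17740, a DC1 domain gene used as a marker of pattern-triggered immunity, read 5.16, 6.10 and 2.67 untreated and 11.93, 12.08 and 11.95 treated. Its change of 7.34 had an SE of 0.787 and ranged from 6.36 to 8.07 when each of the 6 arrays was left out in turn. AT1G26380, a berberine bridge enzyme-like oxidase of indole-carbonyl nitrile metabolism, read 2.73, 4.95 and 2.96 untreated and 10.40, 11.03 and 10.93 treated. In neither gene did the groups overlap. AT2G44370, another DC1 domain gene, rose by 6.43 and AT2G22880, which encodes a VQ-motif protein, by 6.73. AT1G65690 of the NHL family rose by 5.47 and AT3G01830, a calmodulin-like gene, by 5.39.

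The other members of this group were AT1G49000 with 6.86, AT3G18250 with 6.01, the lipid transfer and extensin-like gene AT4G22470 with 5.69, the kinase gene AT1G51620 with 5.52 and the berberine bridge enzyme-like gene AT1G26410 with 5.30. A probe set, singled out after its values were seen, that the annotation pairs with no gene moved further than any of them, from 2.85 to 11.94.

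**Figure D2:**
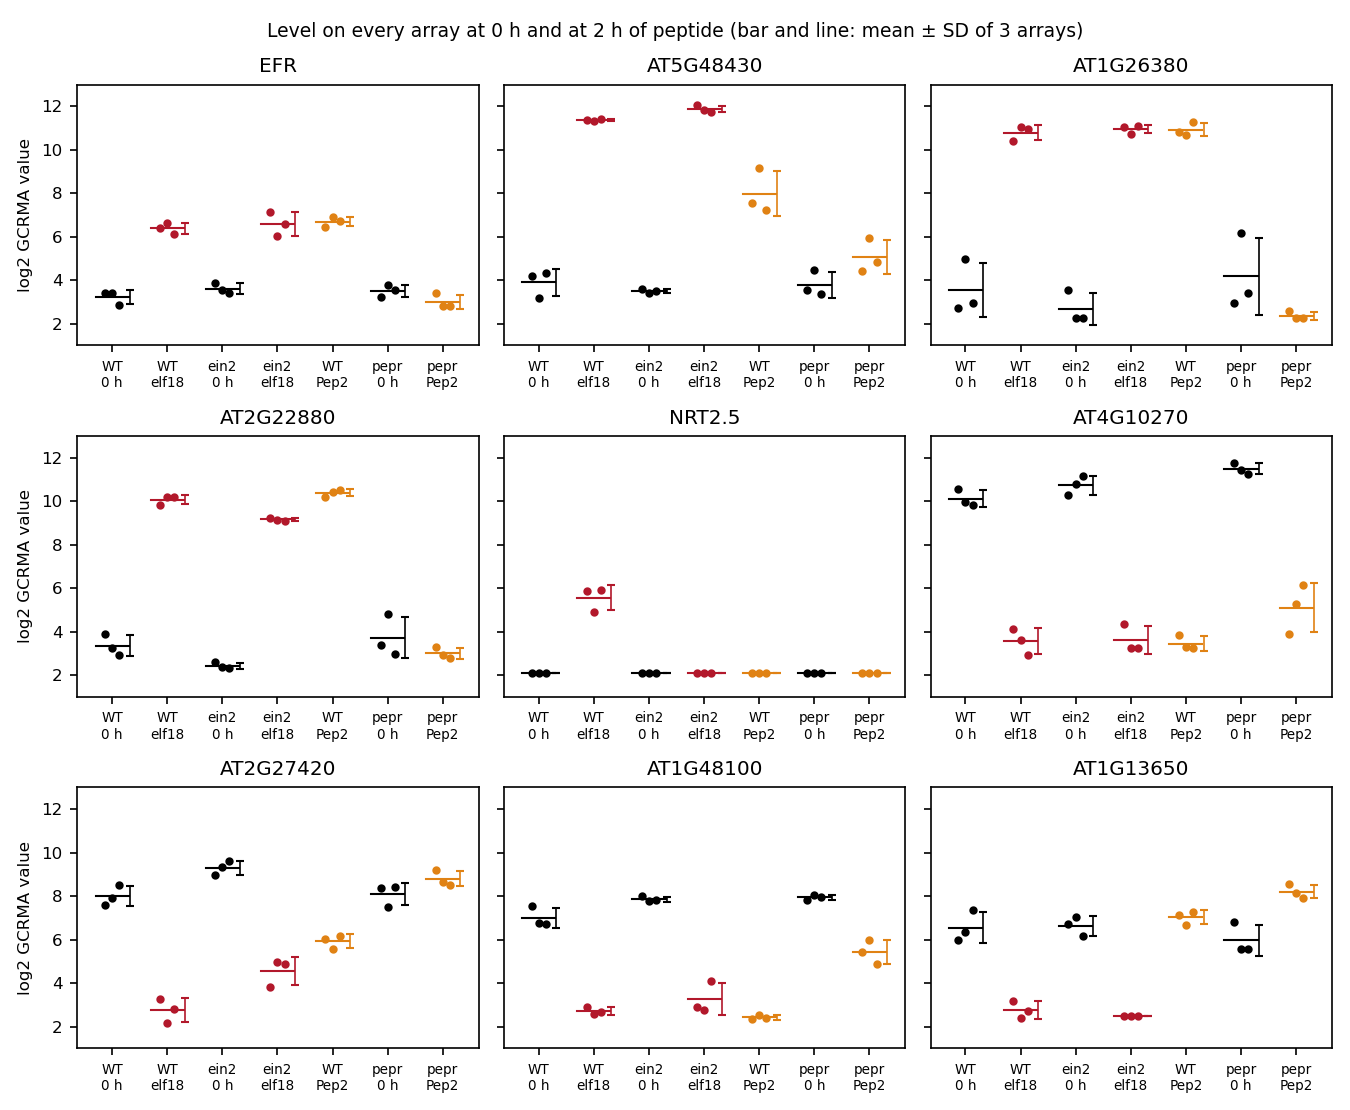
Log2 GCRMA value (vertical) of 9 genes on each of 3 arrays per group at 0 h (black), at 2 h of elf18 (red) and at 2 h of Pep2 (orange), with the mean and SD of 3 arrays; pepr stands for pepr1 pepr2. AT5G48430 and AT2G22880 are high in WT and ein2 after elf18, and in pepr1 pepr2 given Pep2 they stand at 5.08 and 3.00, AT4G10270 falls in all 3 lines, and NRT2.5, among the groups drawn, leaves the lowest value only in WT given elf18.

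Marker genes of pattern-triggered immunity rose as a group. All 11 members with a tested probe set were called higher, with a median change of 4.49, against 8.16% of all probe sets tested. These 11 are the named part of a list of 20 that was chosen for genes known to respond to such peptides, so their direction is not independent evidence. WRKY22, a transcription factor gene, went from 4.47, 3.58 and 3.61 to 9.20, 8.68 and 9.36, and PUB22, a U-box ubiquitin ligase that dampens immune signalling, from 6.71, 6.58 and 6.48 to 10.96, 10.96 and 11.34. STZ, a zinc finger repressor gene, rose by 4.41 to 8.75 ± 0.17. The smallest change of the group was 2.12.

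Among WRKY transcription factor genes, 4 of 5 tested were higher and 0 lower, against 8.16% and 6.34% of all probe sets tested. The WRKY list holds 67 genes, of which 6 have a named probe set. WRKY53 rose by 2.45 and WRKY6 went from 5.86 ± 0.20 to 8.06 ± 0.29, while WRKY20 read 6.86 ± 0.16 and 6.96 ± 0.19. U-box ligase genes moved in both directions, 4 of 7 higher and 2 lower. The paralogs PUB22, PUB23 and PUB24 rose by 4.50, 2.92 and 2.80 and PUB43 by 1.74. PUB26 fell by 1.34, from 4.83, 4.71 and 5.56 to 3.82, 3.36 and 3.91, and PUB25, named after its values were seen, fell by 1.26. In ein2 the list had 4 members higher and 0 lower. PUB25 and PUB26 are known as ligases of the kinase BIK1.

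The leucine-rich repeat receptor kinase genes around AT1G51 on chromosome 1 held 5 genes called higher among 6 tested, with a median of 4.32. Of all probe sets tested, 8.16% were higher and 6.34% lower. AT1G51820 rose by 5.03, AT1G51790 by 4.80, AT1G51890 by 4.49 and AT1G51850 by 4.15, and AT1G51860 by 1.82. Other runs of neighbouring genes rose too, and they were picked out after the values were seen. Neighbours were counted among the 7675 genes with a tested probe set, of which 564 were called higher and 451 lower. There, 9 runs of at least 3 genes held only genes called higher, and 2 held only genes called lower. The longest was a run of 4 S-domain receptor kinase genes, AT1G61360, AT1G61370, SD1-29 and AT1G61420, with changes between 2.13 and 3.65. AT5G64100, AT5G64110 and AT5G64120, which encode peroxidases, rose by 1.07 to 3.23. Neighbouring genes of 1 family can share probe sequences, and how far cross-hybridisation enters their values was not tested.

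Berberine bridge enzyme-like oxidase genes were higher at 7 of 10 tested members and lower at 0, with a median of 2.99. Of all probe sets tested, 8.16% were higher and 6.34% lower. Several of these secreted flavoproteins oxidise cell wall oligosaccharides or indole compounds. AT1G26420 rose by 5.07, AT1G30700 by 3.45 and AT4G20860 by 3.42, the last from 9.40 ± 0.24 to 12.82 ± 0.31. AT1G26390, named after its values were seen and lying between AT1G26380 and AT1G26410, read 2.49 ± 0.33 and 2.88 ± 0.17, close to the lowest value, and was not called.

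Genes of endoplasmic reticulum folding also rose, by smaller amounts. The list was at 4 of 7 tested members higher and 0 lower, against 8.16% and 6.34% of all probe sets tested. It holds 28 genes, of which 7 have a named probe set. ATERDJ3B, a co-chaperone needed for EFR to accumulate, went from 9.61, 9.72 and 9.59 to 12.31, 11.92 and 11.97 (change 2.43, SE 0.143). AT5G07340, which encodes a calnexin, rose by 1.74, CRT1b, a calreticulin, by 1.46, and BZIP17, a membrane-tethered transcription factor, rose from 7.00 ± 0.28 to 8.20 ± 0.18. BZIP60 changed by 0.90, under the fold minimum. In a further list, written after values were seen, OS9 of the degradation pathway rose by 1.37 and DER1 went from 8.50 ± 0.18 to 9.69 ± 0.04.

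Calcium genes rose in part. Calcium sensor genes were at 3 of 7 higher and 0 lower, against 8.16% and 6.34% of all probe sets tested. Their list holds 81 genes, of which only 7 have a named probe set. CML42 rose by 2.46, and CML37 read 2.09, 2.08 and 2.12 untreated and 4.31, 5.25 and 2.93 treated, a wide spread above the lowest value that gave changes of 1.53 to 2.68 when each array was left out, the lowest without the second treated array. CML41, a plasmodesmal calcium sensor, rose by 1.56, but was not called without the second treated or the second untreated array (1.23 without the former, adjusted p = 0.095). Of 5 glutamate receptor-like channel genes, GLR2.7 rose by 2.16 and ATGLR1.2 was called with a change of 1.27, from 2.08 on all untreated arrays to 2.56, 4.69 and 2.80. That call rests on the second treated array, without which the change was 0.60 (adjusted p = 0.074). The other 3 changed by 0.08 to 0.43 and were not called. The list of calcium channels and pumps holds 62 genes, of which 8 have a named probe set. The peroxidase gene PRX52 was at 2.08 on all 3 untreated arrays and at 6.96, 7.77 and 5.94 after elf18. Its list of secreted peroxidases had 1 of 3 tested members higher and 0 lower, with a median of -0.18.

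Enzymes of secondary metabolism gave a mixed picture. Of all probe sets tested, 8.16% were higher and 6.34% lower. UDP-glycosyltransferase genes were at 7 of 35 higher and 4 lower, with a median of 0.28. UGT71B6, an abscisic acid glucosyltransferase, rose by 2.99, UGT73B5 by 2.93, UGT73D1 by 2.65 and UGT73B4 by 2.64. Cytochrome P450 genes were at 3 of 12 higher, CYP71B23, CYP71B5 and CYP71B24 with 2.95, 2.16 and 1.64, and 2 lower, CYP71B34 and CYP71B36 with -1.49 and -1.07. That list holds 219 genes, of which 20 have a named probe set. CYP71B24 changed by 1.03 without the third untreated array, and CYP71B36 fell below the fold minimum without the second untreated (-0.88) or second treated array. Glutathione transferase genes were at 1 of 12 higher and 1 lower, near the background of all probe sets. Among the 3 tested aliphatic glucosinolate genes, BCAT4, which starts methionine chain elongation, fell by 1.24. CCR2, a cinnamoyl-CoA reductase of the lignin pathway, rose by 2.80 and GH3.3, which conjugates auxin to amino acids, by 3.53. The auxin response list that holds GH3.3 had 1 of 3 tested members higher and 1 lower, with a median of -0.88.

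Other defence and hormone lists moved little at 2 h or had few named probe sets. Defence peptide and PR protein genes were at 2 of 9 higher and 0 lower with a median of -0.30, against 8.16% and 6.34% of all probe sets tested. PDF1.4 and THI2.2 rose by 1.64 and 1.39, the former not called without the third untreated array (1.28, adjusted p = 0.059), and PDF1.2, a defensin marker of jasmonate and ethylene, read 7.85 ± 0.67 and 7.28 ± 1.04. SAG101 of the salicylate list rose by 1.33, and UGT76B1 and GRX480 changed by 0.50 and 0.16. The 2 MAP kinase genes with a tested probe set, ATMPK13 and ATMPK8, changed by 0.49 and 0.47. No gene of the Pep precursor, ethylene synthesis or jasmonate lists has a named probe set here.

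**Figure D3:**
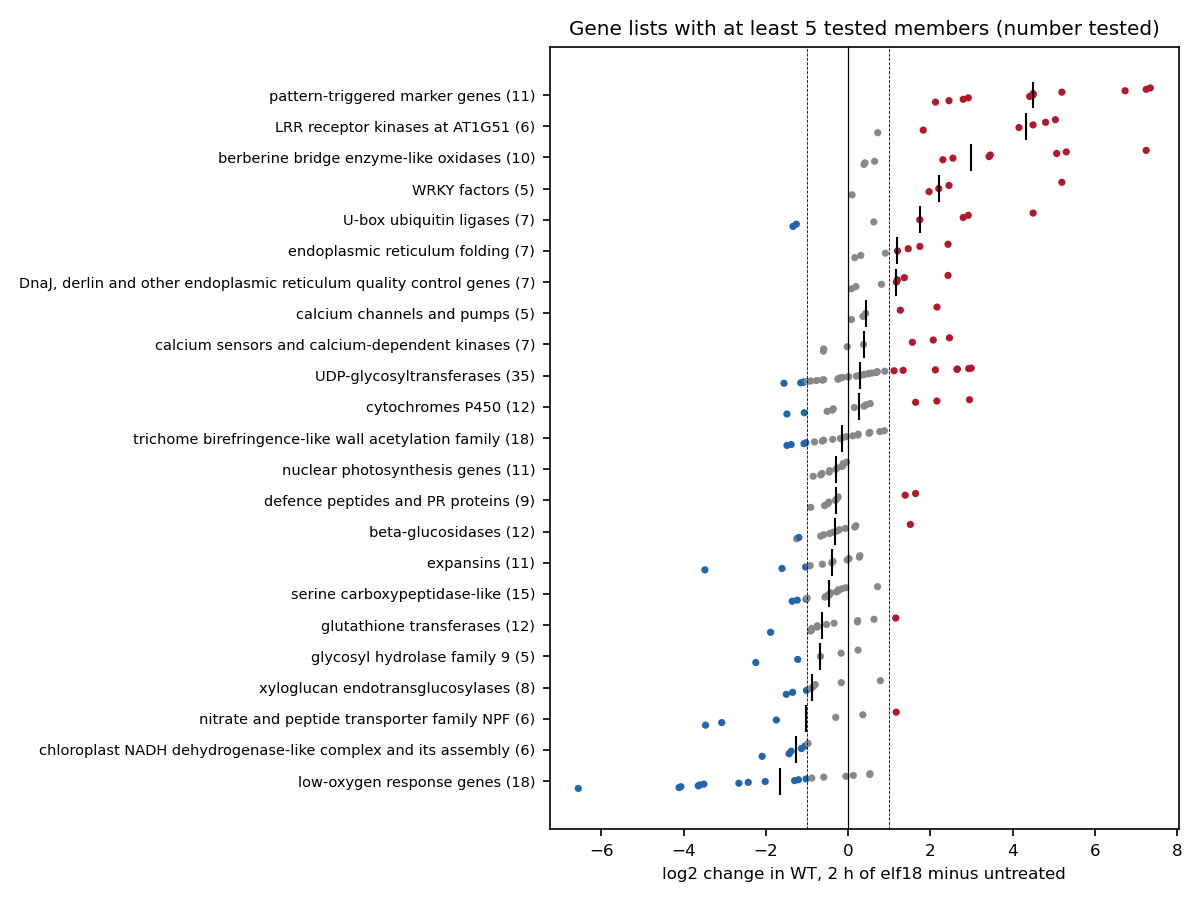
Log2 change in WT (2 h of elf18 minus untreated, horizontal) of each tested gene in the lists with at least 5 tested members; red and blue mark genes called higher and lower, gray the rest, and the black bar the list's median. The markers of pattern-triggered immunity lie furthest right with a median of 4.49, and the low-oxygen response genes, a list written after values were seen, furthest left with a median of -1.66.

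The 12 largest decreases of named genes ran from -3.61 to -6.56. AT4G10270, a wound-response family gene, went from 10.55, 9.98 and 9.81 to 4.14, 3.60 and 2.93 (change -6.56, SE 0.582). AT2G27420, which encodes a papain-type cysteine protease, went from 7.59, 7.93 and 8.49 to 3.26, 2.16 and 2.82. AT1G48100, a polygalacturonase gene, went from 7.53, 6.78 and 6.70 to 2.91, 2.57 and 2.67. The groups were far apart in all 3 genes, and 1 treated array of AT2G27420 came close to the lowest value of the table.

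AT4G34950, a major facilitator transporter gene, fell by 3.94, AT4G25250, a pectin methylesterase inhibitor gene, by 3.67 and AT1G54050, a small heat shock protein gene, by 3.64. AT4G25250 read 2.11 ± 0.01 after elf18, so its decrease is limited by the lowest value. AT1G13650 fell by 3.79 and AT4G26460 by 3.64. AT5G10040, AT2G17850, AT1G33055 and AT4G33560, which belong with AT4G10270 to the core genes induced by low oxygen, fell by 4.11, 4.06, 3.64 and 3.61.

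A list of low-oxygen response genes, written after the values were seen, had 12 of 18 tested members lower and 0 higher, with a median of -1.66, against 6.34% of all probe sets lower. Submergence or a lack of air induces these genes in plants. The seedlings had grown in liquid, and whether oxygen had a part in these changes was not tested. Untreated WT arrays differed among themselves, with a median level of the 18 genes of 8.52, 7.96 and 7.71, against 6.39, 6.72 and 6.21 after elf18. AT5G10040 read 8.80, 6.53 and 6.05 untreated and 3.07, 2.96 and 3.02 treated. Without the first untreated array its change was -3.27, and that of AT2G17850 -3.55. CML38, a low-oxygen gene that is also a calcium sensor, changed by -0.59 with overlapping groups.

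Cell wall loosening genes fell in part. Expansin genes were at 3 of 11 lower and 0 higher. EXLA1 went from 8.81, 8.51 and 9.36 to 5.49, 5.31 and 5.43 (change -3.48, SE 0.287), EXPB1 fell by 1.61 and EXPA15 by 1.03, the latter under the fold minimum without the second treated (-0.81) or the third untreated array. Xyloglucan endotransglucosylase genes were at 3 of 8 lower and 0 higher, with XTH19, XTH21 and XTH32 at -1.50, -1.35 and -1.01, of which XTH32 was under the fold minimum in 4 of 6 fits without 1 array (-0.94 without the third treated array). In lists written after the values were seen, 2 of 5 endoglucanase genes of glycosyl hydrolase family 9 and 4 of 18 genes of the TBL wall acetylation family fell, GH9B8 by 2.24 and TBL37 by 1.49, and none rose. Of all probe sets tested, 6.34% were lower. In ein2 at 2 h of elf18, expansin genes were at 2 lower and 1 higher and xyloglucan endotransglucosylase genes at 0 lower and 1 higher. Family 9 genes were at 1 lower and 0 higher there, and TBL genes at 2 lower and 2 higher.

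Photosynthesis genes of the nucleus were at 0 of 11 called in either direction, with a median of -0.30. The largest change was that of PRK, phosphoribulokinase, which read 13.26 ± 0.05 before and 12.41 ± 0.27 after treatment, a difference under the fold minimum. The chloroplast NADH dehydrogenase-like complex, in a list written after the values were seen, was at 5 of 6 lower and 0 higher. Of all probe sets tested, 6.34% were lower and 8.16% higher. CRR42, an assembly factor, went from 7.64, 7.72 and 7.32 to 6.03, 4.93 and 5.47, CRR41 fell by 1.38, and the subunit genes NdhL and NdhS fell by 1.43 and 1.05, the latter under the fold minimum (-0.92) without the second treated array. Cytokinin response regulator genes fell at both tested members of another such list, ARR15 by 2.46 and RR16 by 1.82. Of 6 tested genes of the NPF nitrate and peptide transporters, also listed after the values were seen, 3 fell and 1 rose. AT3G21670 (NPF6.4) went from 11.65, 11.72 and 11.76 to 8.96, 8.36 and 8.59. Clock genes were at 0 of 3 called. The middle gene of the 3 stood at 2.08 to 2.16 on the 6 arrays, at or near the lowest value, where a decrease cannot be seen. That limit does not hold for all 3, as 1 was lower at 10 h than at 2 h of elf18.

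The same treatment of ein2 gives a set of 6 arrays that shares none with WT. There 1287 probe sets were higher (8.83%) and 1036 lower (7.11%) at 2 h of elf18 than in untreated ein2. Of the 1189 probe sets that rose in WT, 1001 rose in ein2, which is 84.2% of the WT calls and 77.8% of the ein2 calls. Of the 923 that fell in WT, 641 fell in ein2, 69.4% of the WT calls and 61.9% of the ein2 calls. None was called in the opposite direction. Over all 14568 probe sets the changes of both lines correlated at 0.912, with a slope through 0 of 0.984 for ein2 on WT, as a description over probe sets of 1 array type.

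All 11 marker genes were higher in ein2, with a median change of 4.78. EFR went from 3.60 ± 0.26 to 6.59 ± 0.57 in ein2, and its change differed from that in WT by -0.17 (SE 0.316, adjusted p = 0.89). AT5G48430 went from 3.51 ± 0.10 to 11.87 ± 0.16 and AT4G10270 from 10.73 ± 0.44 to 3.61 ± 0.65. Low-oxygen genes were lower at 15 of 18.

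A difference between the changes of the lines was called in the higher direction at 0.693% of the probe sets tested and in the lower at 0.680% (99 probe sets). It uses the WT arrays that also made the WT calls. Among the 1189 probe sets that rose in WT, 28 rose more and 30 rose less in ein2, and among the 923 that fell, 36 fell less and 9 fell more. NRT2.5, a high-affinity nitrate transporter gene, was at 2.08 on all untreated WT arrays and at 5.87, 4.91 and 5.91 after elf18. In ein2 it stayed at 2.09 ± 0.00, and the changes differed by -3.48 (SE 0.381, adjusted p = 3.1e-07). CML37 rose more in ein2, to 7.04 ± 0.73, with a difference of 2.85 (adjusted p = 0.012) that was no longer called without the third treated WT array or in a fit of only the groups compared (highest adjusted p = 0.085).

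Some of these genes also differed between the lines before treatment. AT5G01210, an acyltransferase family gene, read 8.99, 9.33 and 8.66 in untreated WT and 11.60, 11.39 and 11.42 after elf18, but 6.25 ± 0.06 and 6.67 ± 0.20 in ein2. AT4G26460 started at 6.58 in WT and at 4.58 ± 0.25 in ein2 and ended at a like level in both, 2.94 and 3.04 ± 0.01. AT4G25250 started at 5.78 in WT and 6.18 ± 0.53 in ein2 and stood at 2.11 and 5.04 ± 0.87 after elf18, a difference between the changes of 2.53. AT2G39400, an alpha/beta hydrolase gene, started at 7.62 in WT and 4.11 ± 0.78 in ein2. RTE1, a regulator of the ethylene receptor ETR1, changed by 0.67 in WT and by -1.40 in ein2, the latter by -0.81 and not called without the first treated ein2 array.

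Seedlings of pepr1 pepr2 given Pep2 for 2 h carry mutations in both receptor genes of that peptide and passed the same time after treatment, on 6 arrays that WT does not share. They are no control for elf18, whose receptor they keep. There 207 probe sets were higher (1.42%) and 307 lower (2.11%) than in their own untreated group. Of the 1189 probe sets that rose in WT after elf18, 57 rose there and 43 fell, and their median change there was 0.01. Of the 923 that fell in WT, 149 fell there and 19 rose, with a median of -0.26. The 149 are 16.1% of the WT decreases and 48.5% of the pepr1 pepr2 decreases. The slope of the pepr1 pepr2 change on the WT change was 0.00 over the increases and 0.31 over the decreases.

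**Figure D4:**
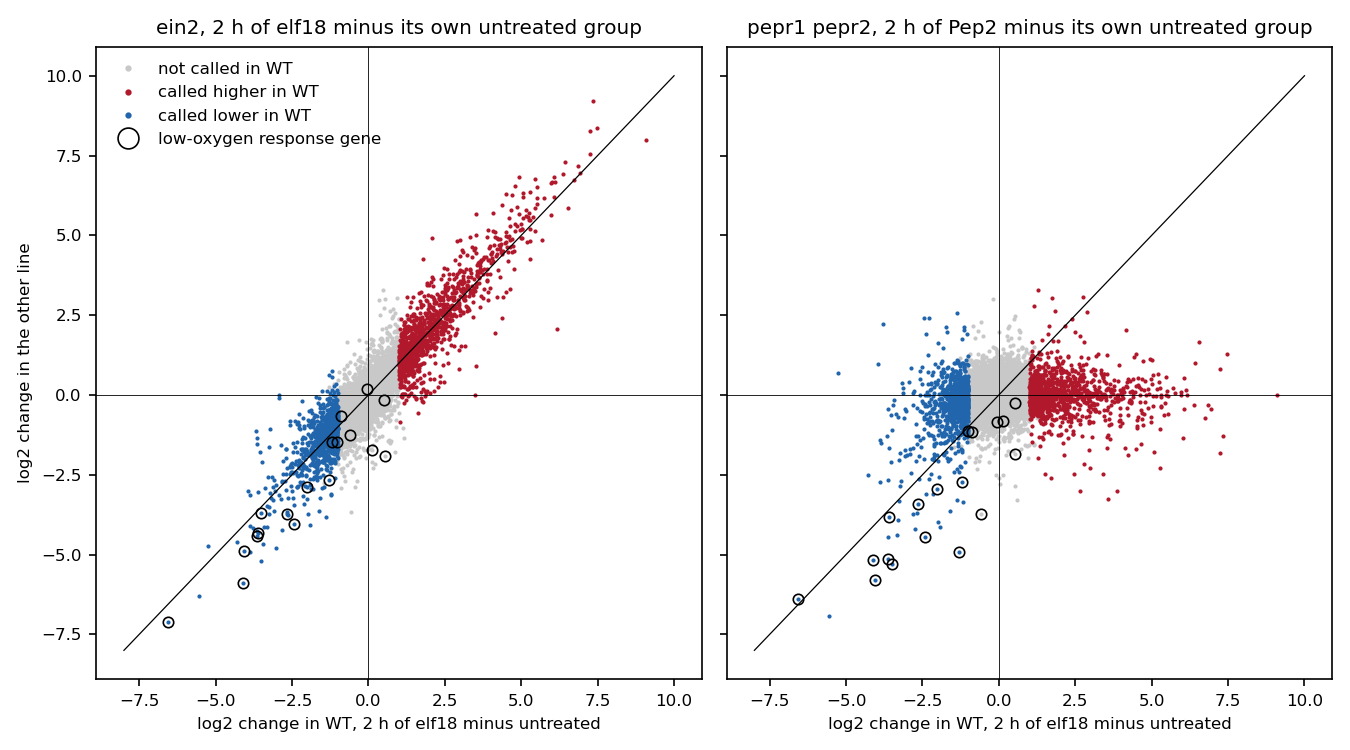
Log2 change of each tested probe set in WT (2 h of elf18 minus untreated, horizontal) against the change in ein2 at 2 h of elf18 (left) and in pepr1 pepr2 at 2 h of Pep2 (right), each against its own untreated group, with the line of equal change; red and blue mark probe sets called in WT and circles the low-oxygen response genes. Probe sets called in WT lie along the line in ein2 (slope 0.984 over all), while in pepr1 pepr2 red points lie around 0 and the circles have a median of -3.58.

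The change in WT and the change in pepr1 pepr2 were also tested against each other. The difference was called at 1323 probe sets in the higher direction (9.08%) and 1031 in the lower (7.08%). It was called higher in WT at 979 of the 1189 increases and lower in WT at 524 of the 923 decreases. At 386 of the decreases no difference was called, and at 13 the decrease was larger in pepr1 pepr2. The 11 immunity markers all differed, with a median difference of 4.23. EFR read 3.51 ± 0.27 and 3.00 ± 0.33 in pepr1 pepr2, AT2G22880 3.73 ± 0.96 and 3.00 ± 0.26, and AT5G48430 3.79 ± 0.59 and 5.08 ± 0.79. The increase of AT5G48430 there, 1.29, was called (adjusted p = 0.029) but not in 3 of 6 fits without 1 array (0.85 without the second Pep2 array, adjusted p = 0.21), and the difference from the WT change was 6.18.

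Low-oxygen genes fell in pepr1 pepr2 as well, at 15 of 18, with a median of -3.58 against -1.66 in WT. AT4G10270 went from 11.76, 11.45 and 11.27 to 3.91, 5.25 and 6.15 there, and its change differed from that in WT by -0.17 (SE 0.823, adjusted p = 0.90). AT1G33055 fell by 5.15 there and by 3.64 in WT, a called difference of 1.50. AT4G24110 fell by 4.92 there, and in WT from 7.18 ± 0.52 to 5.88 ± 0.48 (difference 3.62, adjusted p = 4e-08). In all, 6 of the 18 fell less in WT by this test, and none fell more. The untreated levels stood apart too, with a median over the 18 genes of 9.08, 9.11 and 9.19 on the untreated pepr1 pepr2 arrays against 7.71 to 8.52 in WT.

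Other genes that fell in WT fell less or not at all in pepr1 pepr2. AT2G27420 read 8.11 ± 0.51 untreated and 8.80 ± 0.35 after Pep2 there, and the difference from the WT change was -5.95 (SE 0.473, adjusted p = 8.6e-13). AT1G13650 rose there by 2.24, from 6.80, 5.55 and 5.55 to 8.54, 8.14 and 7.93, and differed by -6.03. AT1G48100 fell by 2.52 there and by 4.29 in WT, a called difference of -1.77. Chloroplast NADH dehydrogenase-like genes had a median of 0.68 there, and the difference was called at 6 of 6. EXLA1 fell by 1.11 there, under the fold minimum without the first Pep2 array (-0.90), and by 3.48 in WT, a called difference of -2.37. In contrast, ARR15 fell by 2.02 there and by 2.46 in WT, with no difference called. RR16, the other tested member of its list, was not called there, and its decrease was larger in WT by a called difference.

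With the untreated efr and pepr1 pepr2 arrays in place of the untreated WT arrays, 1227 probe sets were higher and 942 lower. They held 1102 of the 1189 increases and 795 of the 923 decreases, and none in the opposite direction.

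WT given Pep2 for 2 h was set against WT given elf18 for 2 h, without untreated arrays, although the elf18 arrays are those of the WT response. The level was higher with elf18 at 555 probe sets (3.81%) and lower at 597 (4.10%). Within the 1189 increases, 122 were higher with elf18 and 187 higher with Pep2. EFR stood at 6.37 ± 0.26 with elf18 and 6.69 ± 0.22 with Pep2 (difference -0.32, adjusted p = 0.34), and AT1G26380 at 10.79 ± 0.34 and 10.92 ± 0.31. AT5G48430 was at 7.55, 9.17 and 7.21 with Pep2, a difference of 3.40 (SE 0.441, adjusted p = 9.9e-08). NRT2.5 was at 2.08, 2.11 and 2.08 with Pep2.

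WRKY22 was higher with elf18 by 2.56, whereas WRKY53 and WRKY6 were higher with Pep2, by 2.68 and 2.00 (all 3 called). CCR2 read 11.25, 11.03 and 11.18 with Pep2 and 7.91, 8.39 and 7.39 with elf18. AT3G28580, an AAA-type ATPase gene, read 8.84, 8.54 and 7.98 with Pep2 and 4.40, 5.55 and 3.13 with elf18. Of the decreases, AT1G13650 stood at 7.12, 6.69 and 7.29 with Pep2, close to its untreated levels of 5.96, 6.35 and 7.35, and at 3.18, 2.38 and 2.73 with elf18. AT2G27420 was at 5.94 ± 0.31 with Pep2 and 2.75 with elf18. AT4G10270 was at 3.45 ± 0.34 with Pep2, and its difference of 0.11 was not called.

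Between 2 h and 10 h of elf18 in WT, 957 probe sets went up (6.57%) and 875 went down (6.01%). The arrays at 2 h enter this comparison and the WT response alike. Clock genes moved here (2 of 3 higher and 1 lower), so a different time of day cannot be told apart from longer treatment. Within the 1189 increases, 252 went further up by 10 h and 135 came down, and 802 had no call. EFR read 6.94 ± 0.19 at 10 h, AT5G48430 11.34 ± 0.29 and AT2G22880 10.00 ± 0.10, none of them called against 2 h. NRT2.5 went on to 8.49, 7.82 and 8.95, and PRX52 to 11.27, 12.17 and 11.04.

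Some genes that had risen at 2 h were lower at 10 h. AT2G34930, a leucine-rich repeat protein gene, stood at 3.43 before treatment, at 7.21, 7.45 and 7.32 at 2 h and at 2.43, 2.28 and 2.34 at 10 h. AT1G69570, a Dof transcription factor gene, stood at 7.19, 7.22 and 7.07 at 2 h and at 2.68, 3.02 and 2.72 at 10 h, below its untreated levels of 5.12, 4.86 and 4.84. AT1G26380 was lower at 10 h than at 2 h by 1.82 but, at 8.97 ± 0.45, still above its untreated arrays. Among the decreases, AT4G34950, at 7.94 untreated, read 3.77, 4.73 and 3.50 at 2 h and 8.24 ± 0.01 at 10 h. In efr it went from 7.00 ± 0.75 untreated to 11.85 ± 0.16 at 10 h of elf18. Its untreated level therefore cannot stand for its level at 10 h without perception of the peptide. AT3G21670 fell on to 3.50 ± 0.31, and AT5G48490, a lipid transfer family gene that had fallen by 2.00 at 2 h, to 3.11 ± 0.43.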

How the data were processed

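Whole-seedling RNA was measured on 51 Affymetrix ATH1 arrays in 17 groups of 3, labelled as separate replicates, whose independence the labels do not describe. The deposited values are log2 expression made by the authors with GCRMA, per the submitters' processing notes. GCRMA corrects the background and quantile-normalises, so real shifts of the whole transcriptome would be removed. Its version and any filter are not given in the sources used here. Precision is set by the 3 arrays of a group, as arrays carry no read depth. The p-values measure the spread between these arrays, which may be technical.

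Probe sets reaching log2 5 on at least 3 of the 51 arrays were tested, 14568 of 22810, and a gene that passed through the group where it was high had to differ. Of these, 7828 have exactly 1 gene in the platform annotation, and names come from it and from RefSeq. The model gave each of the 17 groups its own mean and pooled the spread over the 51 arrays (limma 3.58.1, R 4.3.3). A call needs a Benjamini-Hochberg adjusted p under 0.05 within the contrast and a 2-fold difference. There were 7 contrasts. On simulated data with 14568 probe sets the WT response recovered 95% of changes of 1.5 and 100% of changes of 3. Of the levels in the data, 27.4% lay within 0.1 of the lowest value. Recovery at such levels, or with correlated arrays, was not tested, so these percentages are not the power of the WT comparison. Figures were drawn with matplotlib 3.10.9.

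Named genes are EFR, the 14 largest increases and 12 largest decreases of genes with 1 probe set each and no overlap, up to 5 members of a list, and up to 6 each way in another contrast; a list's further members are named where a count is given. Members, lists and tests were chosen with earlier results of these data known. Positions, protein and promoter sequences are not used here. The settings varied were the filter (none, or log2 7), the fold minimum, array weights, an intensity trend, a replicate block, centring or quantiles of the arrays, the arrays in the fit, the untreated controls, and each array left out. Replicate numbers were checked for pairing through residual correlations. From 2 h to 10 h of elf18, same-numbered WT arrays correlated at 0.11 to 0.20, so the numbers pair them there by the data and not by the labels. The same held between WT at 2 h of elf18 and pepr1 pepr2 at 2 h of Pep2 (0.13 to 0.31) and between untreated ein2 and WT (0.13 to 0.30), but not for the other pairs of groups in those difference tests. For the WT response same-numbered arrays correlated at 0.04, 0.21 and 0.23, and differently numbered ones at -0.08 on average. Not every same-numbered pair was over 0.1, so pairing there is neither shown nor excluded.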

Additional observations from a re-analysis of the deposited data

Results flagged for a closer look

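The genes below were singled out because the change in ein2 differed from the change in WT at 2 h of elf18 by a test of the difference itself (limma, adjusted p under 0.05), and because they had the largest such differences among genes called in WT or belong to its largest changes. The difference is the ein2 change minus the WT change on the log2 scale. Genes whose difference was positive were CML37 with 2.85, AT4G25250 with 2.53, AT1G54050 with 2.29, NDB4, an alternative NADH dehydrogenase of mitochondria, with 2.18, AT2G39400 with 2.12 and AT4G26460 with 2.11. Genes whose difference was negative were NRT2.5 with -3.48, TBL26 with -2.44, AT1G56300, a DnaJ chaperone gene, with -2.17, AT5G50915, a bHLH transcription factor gene, with -2.15, AT5G01210 with -2.06 and AT5G48175 with -2.03.

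AT4G25250, AT1G54050, NRT2.5, AT5G01210 and AT5G48175 were called under every alternative in which they were tested. TBL26 was not called under 11 of 20, NDB4 under 5 of 19 and AT5G50915 under 5 of 20, with adjusted p values up to 0.10, 0.23 and 0.10. AT1G56300 was not called under 3 of 20, CML37 under 2, and AT2G39400 and AT4G26460 under 1 each.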

How the results depend on the processing

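The changes of 27 named genes in WT were followed through 403 values under the alternatives, and all kept their direction and their call. Smaller changes did not all do so: in WT the calls of ATGLR1.2, CML41, PDF1.4, CYP71B36, EXPA15, XTH32 and NdhS ended without 1 array, with the values given beside them above. Leaving out 1 array at a time gave 1138 to 1243 increases and 848 to 1003 decreases in WT. With the replicate number as a block, 1190 and 929 were called in WT, and the block moved no count of calls in any contrast by over 1.5 times. Without the fold minimum the counts were 3311 and 3791 for WT, 3175 and 4123 for ein2, 2069 and 1489 for elf18 against Pep2, 3311 and 3531 for 10 h against 2 h, 1843 and 1603 for pepr1 pepr2, and 2635 and 2991 for WT against pepr1 pepr2, because small differences then count; for the difference of ein2 from WT it gave 151 lower. For the same difference, a fit of only the groups compared called 64 higher and 63 lower, with fewer arrays to estimate the spread. Leaving out 1 array at a time gave 60 to 98 higher and 68 to 115 lower, with 60 without the second untreated WT array, 63 without the first treated ein2 array and 67 without the first untreated ein2 array. Levels at the lowest value of the table limit how large a change can be measured, and no detection call was used.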
